A study of Solanum lycopersicum with 31 samples.

Results

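Tomato leaves grown beneath a spectrally neutral control filter were compared between a height-controlled experiment (C_HC) and an experiment in which the photosynthetic photon flux density was controlled (C_PC). The 8 libraries were chosen by their sample titles, 4 in each group, out of 31 in the series. All were leaf tissue of wildtype plants of the cultivar Moneymaker, raised in a growth chamber lit by ceramic metal halide and incandescent bulbs, and the design text gives 4 individual plants per condition. By their labels, no plant in either group grew beneath a solar cell filter. The groups then differ in the experiment they belong to and in whatever light level each experiment set. For the library labelled C_PC 4 the label is in doubt, as described below. The photon flux of either group and the hour of collection are not given in the sources used here, and experiment, light level and collection time cannot be told apart.

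Leaves adjust to the amount of light they receive through the chlorophyll-binding antenna proteins that collect it, the electron transport chain, and the Calvin cycle enzymes that fix carbon. Sulfate assimilation depends on reducing power and activated sulfate made in the chloroplast, and its committed step, the reduction of adenylylsulfate (APS), is closely regulated in plants. Many of these genes also follow the circadian clock, in which GIGANTEA and the pseudo-response regulators are expressed at set times of day.

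Control libraries held 14580164 to 15173043 gene counts, so that 3 counts equal 0.179 to 0.227 CPM, the count scaled to a common library total. The library labelled C_PC 4 stood apart. Its file identifier carries a block code that otherwise belongs to the plants under the filter PTB7-Th:IEICO-4F in the flux-controlled experiment (PI_PC). Its root mean square log2 distance was 0.915 to 1.1 to C_PC 1 to 3, and 0.538 to 0.809 to the 3 PI_PC libraries that carry that code. To C_HC it was 0.882 to 0.939. Under the filters FTAZ:IT-M and FTAZ:PCBM it reached down to 0.744 (height-controlled) and 0.752 (flux-controlled, 3 libraries), overlapping the range of PI_PC. Pairs among the other 7 control libraries lay at 0.487 to 0.667. The library was kept under its label in the results called "all libraries", and each is also given without it.

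With all libraries, 31 genes were higher in C_HC than in C_PC and 29 were lower (quasi-likelihood test of edgeR, threshold 0.05 on p adjusted by Benjamini and Hochberg). These are 0.191% and 0.179% of the 16198 genes tested. Without the library labelled C_PC 4, 86 genes were higher, 0.533% of the 16147 genes tested, and 73 were lower, 0.452%. In both fits 52 genes were called in the same direction, 28 higher and 24 lower. The 107 genes called only without that library had the same sign with it. Both fits share all other libraries, so this equal sign adds no support. The changes were modest: among the 60 genes called with all libraries the median absolute log2 fold change was 0.78, and 22 reached 1. In all 60 the C_HC values and the 4 C_PC values did not overlap. Of the 16147 genes, every C_HC value was above every C_PC value in 3.62% and below in 2.62%. The 60 were chosen by p between these same groups, so their separation adds no support. Only 17 of the 60 (13 higher, 4 lower) passed with each of the 8 control libraries left out in turn. Without C_HC 1, 2 or 3 the number of calls was 29, 26 and 27. In a fit of the 8 control libraries alone, whose spread includes the library labelled C_PC 4, 0 genes passed in edgeR, with 1297 at an unadjusted p under 0.05. DESeq2 on all 31 libraries called 311, with 148 higher and 163 lower of the 16198 genes tested. The DESeq2 counts in gene lists below stand against these totals. In edgeR, a fit of C_HC against C_PC 1 to 3 alone called 516 genes, 42 of the 52 among them.

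**Figure D1:**
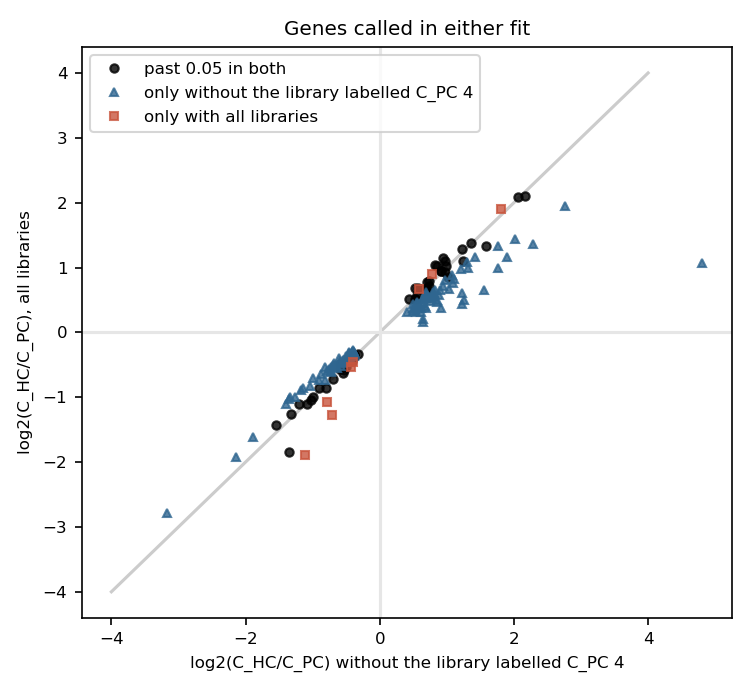
Log2 fold change of C_HC over C_PC for the genes called in either fit, without the library labelled C_PC 4 on the horizontal axis and with all libraries on the vertical axis. Circles are the 52 genes past 0.05 in both fits, triangles the 107 past it only without that library and squares the 8 past it only with it; all points lie in the quadrants of equal sign.

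The genes of sulfate reduction and the low-sulfur response that passed were all higher in C_HC. The gene for 5'-adenylylsulfate reductase 3, which reduces APS to sulfite (LOC101257319, chromosome 2, 29913915 to 29916444, plus strand, build SL3.0), had 123, 89.8, 82.6 and 79.4 CPM in C_HC, against 33.3, 31.2, 29.0 and 55.3 CPM in C_PC. Every C_HC plant was above every C_PC plant, and the library labelled C_PC 4 was the highest of its group. The log2 fold change was 1.33 (SE 0.255, edgeR adjusted p = 0.0134), and 1.58 (SE 0.264, adjusted p = 0.0055) without that library. It no longer passed without C_HC 1 (edgeR adjusted p = 0.0611). A related gene of the same enzyme (LOC101252466, chromosome 3) had 17.7, 16.7, 15.4 and 9.67 CPM in C_HC, against 6.42, 4.83, 6.65 and 10 CPM in C_PC. C_HC 4 fell below the library labelled C_PC 4, and with all libraries the gene did not pass (log2 fold change 1.08, edgeR adjusted p = 0.0687). It passed without the library labelled C_PC 4 (1.30, edgeR adjusted p = 0.0274), and also without C_HC 4 (edgeR adjusted p = 0.0306). These were the 2 genes of this description in the files.

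SULFUR DEFICIENCY-INDUCED 1-like (LOC101258461, chromosome 6), whose Arabidopsis namesake is induced when sulfur is short, had 4.35, 2.81, 2.09 and 3.36 CPM in C_HC, against 1.13, 0.521, 0.585 and 0.715 CPM in C_PC. Its levels were low, but the groups did not overlap and it passed with each control library left out (log2 fold change 2.08, SE 0.382, edgeR adjusted p = 0.00781). RESPONSE TO LOW SULFUR 3-like (LOC101243970, chromosome 3), a small protein also named for its induction in Arabidopsis, had 183, 141, 146 and 96.8 CPM in C_HC, against 72.6, 60.6, 65.0 and 136 CPM in C_PC. It passed only without the library labelled C_PC 4 (log2 fold change 1.09, edgeR adjusted p = 0.0228; with it 0.76, adjusted p = 0.15). SULFUR DEFICIENCY-INDUCED 1 (LOC101260472) and SULFUR DEFICIENCY-INDUCED 2 (LOC101258787) had log2 fold changes of 1.64 and 0.67 and did not pass in either fit.

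Of the 10 tested genes of the low-sulfur list, edgeR called 1 higher and 0 lower, DESeq2 2 higher and 0 lower, and 5 reached an unadjusted p under 0.05, with 2 higher in edgeR without the library labelled C_PC 4. Their median log2 fold change was 0.47, against -0.03 over all genes tested, and 0.35 without that library, against -0.01. In the list of sulfate reduction and cysteine synthesis, 1 of 18 was higher, 2 without that library, and the median was 0.07. The steps on either side of APS reduction gave values that did not pass. An ATP sulfurylase (LOC101259979), which makes APS, had 119, 116, 134 and 118 CPM in C_HC, against 63.3, 86.2, 66.8 and 95.4 CPM in C_PC, a log2 fold change of 0.64 (edgeR adjusted p = 0.295). Sulfite reductase (LOC101055609) had 267, 218, 203 and 209 CPM in C_HC, against 169, 187, 171 and 190 CPM in C_PC, a log2 fold change of 0.32 (edgeR adjusted p = 0.101). In both genes all C_HC plants were above all C_PC plants, which held for 3.62% of all genes tested. Both were picked outside the rule for named genes, so their separation adds no support. Of the 18 genes of sulfate reduction and cysteine synthesis, 11 had a positive fold change, against 45.6% of all genes tested. An unadjusted p under 0.05 in edgeR was reached by 4, against 13.2%, and DESeq2 called 3 higher and 0 lower. Among 11 sulfate transporters 0 passed in edgeR with or without that library and 0 in DESeq2, with 1 at an unadjusted p under 0.05; over all genes tested, 13.2% reached that with all libraries and 16.2% without the library labelled C_PC 4.

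**Figure D2:**
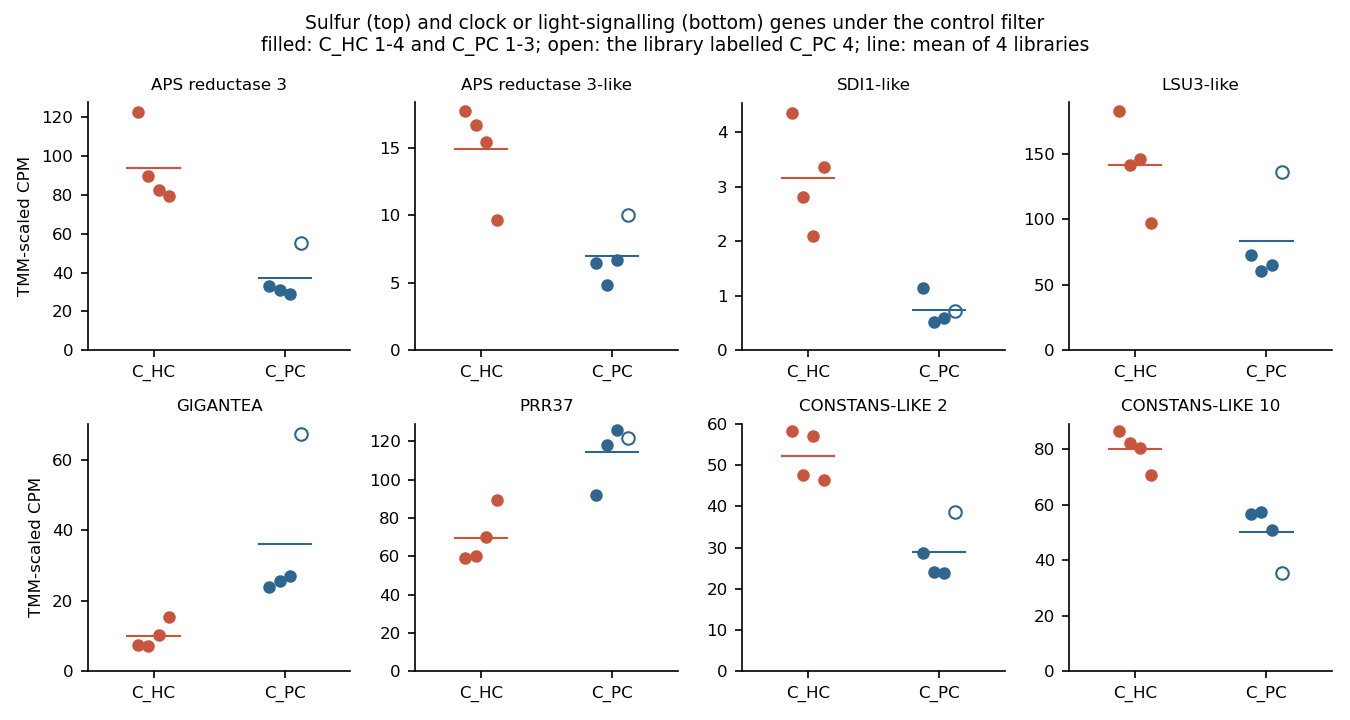
TMM-scaled CPM of 4 sulfur genes (top) and 4 clock or light-signalling genes (bottom) in each library, C_HC left of C_PC, on axes that start at 0. Filled points are C_HC 1 to 4 and C_PC 1 to 3, the open point is the library labelled C_PC 4 and lines are the means of 4 libraries; the C_HC points lie above the filled C_PC points in the 4 sulfur genes and both CONSTANS-LIKE genes, and below them in GIGANTEA and PRR37.

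Both clock genes that passed were lower in C_HC. GIGANTEA, which links the clock to flowering and light input (LOC101255788, chromosome 4, 59098860 to 59140915, minus strand), had 7.38, 7.09, 10.3 and 15.4 CPM in C_HC, against 23.9, 25.7, 27.0 and 67.4 CPM in C_PC. The groups did not overlap, and the library labelled C_PC 4 lay far above the rest of its group. The log2 fold change was -1.84 (SE 0.325, edgeR adjusted p = 0.00687), and -1.36 (SE 0.285, adjusted p = 0.0228) without it. PRR37, a pseudo-response regulator that represses morning clock genes (LOC101254785, chromosome 4), had 59.1, 59.9, 70.3 and 89.6 CPM in C_HC, against 92.2, 118, 126 and 122 CPM in C_PC. Its log2 fold change was -0.72 (SE 0.141, edgeR adjusted p = 0.0162), and adjusted p was 0.0774, 0.077 and 0.0566 without C_HC 1, 2 or 3. These were the 2 of 26 clock genes that passed in edgeR, both lower, where 0.179% of all genes tested were called lower. The same 2 passed without the library labelled C_PC 4. With all libraries 3 clock genes had an unadjusted p under 0.05 in edgeR, against 13.2% of all genes tested. Without that library there were 5, against 16.2%. The median of the list was -0.06. The 2 genes annotated APRR1 (LOC101259163 and LOC101259425), the evening regulator also called TOC1 in Arabidopsis, had log2 fold changes of -0.29 and 0.14. LHY (LOC101261662) had a value of -0.18, but it has 6 annotated transcripts and was poorly counted.

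CONSTANS-LIKE factors, zinc finger proteins of the family that includes the Arabidopsis photoperiod gene CONSTANS, were called by edgeR in 2 of 12 tested genes of this description, both higher in C_HC, with a median of 0.09. Without the library labelled C_PC 4, 2 were higher and 1 was lower. This family was counted after its values were seen. CONSTANS-LIKE 2 (LOC101246984, chromosome 2) had 58.4, 47.6, 57.1 and 46.3 CPM in C_HC, against 28.7, 24.1, 23.9 and 38.7 CPM in C_PC. Its log2 fold change was 0.86 (SE 0.157, edgeR adjusted p = 0.00781). CONSTANS-LIKE 10 (LOC101267825, chromosome 7) had 86.7, 82.1, 80.6 and 70.6 CPM in C_HC, against 56.7, 57.3, 51.0 and 35.4 CPM in C_PC, a log2 fold change of 0.68 (SE 0.118, edgeR adjusted p = 0.00605). Both passed with each control library left out. CONSTANS-LIKE 16 (LOC101254370, chromosome 3) had 222, 212, 276 and 260 CPM in C_HC, against 396, 480, 387 and 145 CPM in C_PC. The library labelled C_PC 4 was below every C_HC plant, and the gene was lower only without it (log2 fold change -0.81, edgeR adjusted p = 0.0307; with it -0.54, adjusted p = 0.332). In the light-signalling list as a whole, edgeR called 2 of 32 genes higher and 0 lower and DESeq2 3 higher and 0 lower; 7 had an unadjusted p under 0.05, against 13.2% of all genes tested, and the median was 0.05. Of 16 photoreceptor genes 0 passed in edgeR in either fit, 1 was lower in DESeq2 and 3 had an unadjusted p under 0.05 with all libraries, against 13.2% of all genes tested. The blue-light receptor PHOT1, with the smallest p among them, had 59.0, 54.9, 55.4 and 63.2 CPM in C_HC, against 67.9, 83.4, 77.6 and 88.9 CPM in C_PC (log2 fold change -0.45, edgeR adjusted p = 0.115).

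Photosynthesis genes mostly had lower values in C_HC than in C_PC 1 to 3, and the lowest values in the library labelled C_PC 4. Of 29 tested light-harvesting genes, 26 had a negative fold change with all libraries and 28 without that library, against 54.4% and 52% of all genes tested, but 0 passed in edgeR in either fit, and 0 in DESeq2. An unadjusted p under 0.05 was reached by 3 with all libraries, against 13.2% of all genes tested, and by 17 without that one, against 16.2%. The median log2 fold change of the list was -0.51 with all libraries and -0.82 without it. In 23 of the 29 genes every C_HC plant was below every one of C_PC 1 to 3, which held for 9.2% of all genes tested. In 27 the library labelled C_PC 4 was below every C_HC plant. How often this held over all genes tested was not counted. The smallest p in the list with all libraries was that of Cab-1A, an antenna protein of photosystem II, which had 12.7, 11.2, 13.1 and 25.3 CPM in C_HC, against 101, 62.8, 88.2 and 1.91 CPM in C_PC. The group of C_PC thus held both the highest and the lowest values of this gene. Its log2 fold change was -2.03 (SE 0.908, edgeR adjusted p = 0.334) and -2.45 without the library labelled C_PC 4 (SE 0.833, adjusted p = 0.146). Several of these genes are near-identical copies between which the counting could split reads.

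The same order appeared along the chloroplast chain. Photosystem and electron transport subunits had a median log2 fold change of -0.25 over 43 genes, and -0.50 without the library labelled C_PC 4. Chlorophyll synthesis genes had medians of -0.24 and -0.48 over 17 genes. In both lists 0 genes passed in edgeR with or without it, and 0 in DESeq2. An unadjusted p under 0.05 was reached by 2 of 43 and 3 of 17 genes with all libraries, against 13.2% of all genes tested, and by 12 of 43 and 12 of 17 without that one, against 16.2%. Calvin cycle genes had medians of -0.24 and -0.35. The chloroplast glyceraldehyde-3-phosphate dehydrogenase B (LOC101264004, chromosome 4), which reduces the first sugar product, had 575, 569, 475 and 577 CPM in C_HC, against 927, 865, 1030 and 518 CPM in C_PC. It was lower only without that library (log2 fold change -0.79, SE 0.197, edgeR adjusted p = 0.0473), edgeR's 1 call among 19 Calvin cycle genes.

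Further chloroplast and carbon enzymes were called lower in C_HC by edgeR only without the library labelled C_PC 4. DESeq2 on all libraries called 1 gene lower and 0 higher in the photoprotection list, and likewise in the leaf senescence list. In the list of starch and trehalose metabolism it called 1 higher and 2 lower. Zeaxanthin epoxidase, ZEP, which returns the photoprotective pigment zeaxanthin to violaxanthin (chromosome 2), had 116, 120, 102 and 140 CPM in C_HC, against 228, 244, 257 and 120 CPM in C_PC. C_PC 1 to 3 were all above C_HC while the library labelled C_PC 4 lay inside its range. The log2 fold change was -1.04 without that library (SE 0.194, edgeR adjusted p = 0.0136) and -0.83 with it (adjusted p = 0.0772). Pheophytinase (LOC101247687), which acts in chlorophyll breakdown, and a beta-amylase (LOC101247340), which releases maltose from starch, had log2 fold changes of -0.50 and -0.58 without it (edgeR adjusted p = 0.0274 and 0.0331). The mitochondrial pyruvate dehydrogenase subunit LOC101258551 had -0.72 (adjusted p = 0.0169) and an ATP synthase I-like gene, LOC101257837, -0.54 (adjusted p = 0.0209).

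Cytosolic ribosomal protein genes lay in the other direction. Of 192 tested, 171 had a positive fold change, and 180 without the library labelled C_PC 4, against 45.6% and 48% of all genes tested. The medians were 0.22 and 0.30. With all libraries 0 passed in edgeR, 3 were higher in DESeq2 and 42 reached an unadjusted p under 0.05, against 13.2% of all genes tested. Without that library 1 passed in edgeR and 81 reached an unadjusted p under 0.05, against 16.2% of all genes. The gene that passed was ribosomal protein S18 of the small subunit (LOC101266399, chromosome 3), with 37.5, 36.8, 37.3 and 30.2 CPM in C_HC, against 22.3, 22.3, 20.2 and 31.2 CPM in C_PC (log2 fold change 0.70, edgeR adjusted p = 0.0265). In 90 of the 192 genes every C_HC plant was above C_PC 1 to 3, which held for 9.69% of all genes tested. S18 is encoded by several copies that can share reads.

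**Figure D3:**
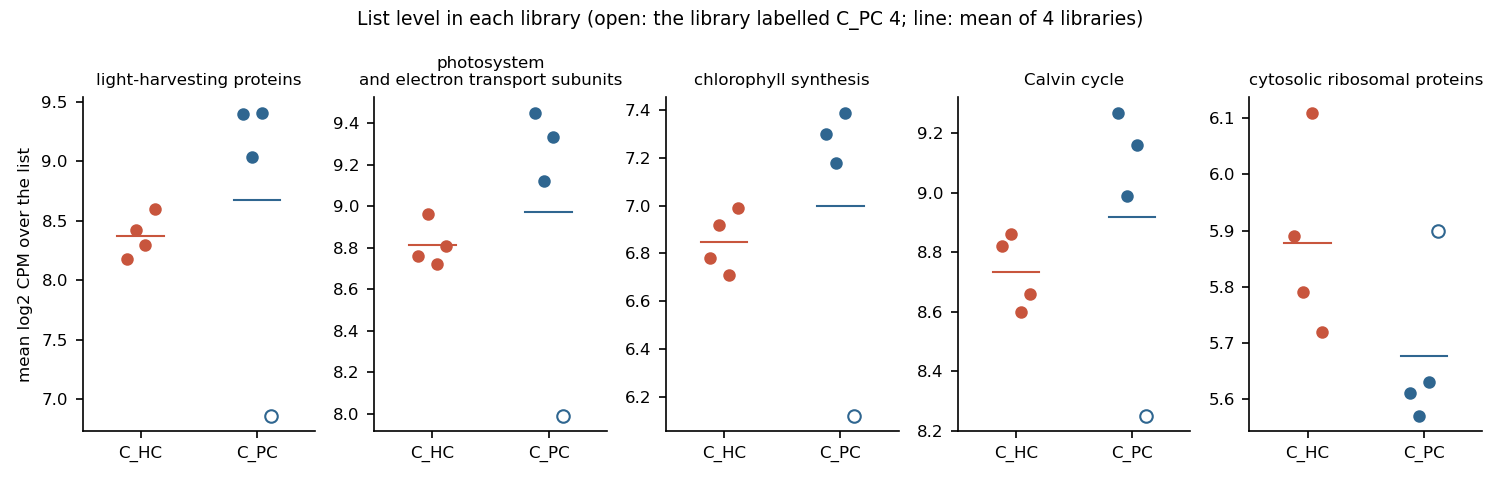
Mean log2 CPM over 5 gene lists in each library, C_HC left of C_PC, with separate vertical scales that do not start at 0. Filled points are C_HC 1 to 4 and C_PC 1 to 3, the open point is the library labelled C_PC 4 and lines are means of 4 libraries; in the 4 chloroplast lists C_HC lies between C_PC 1 to 3 and the open point, and in the ribosomal list C_HC lies above C_PC 1 to 3.

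The summed defining markers of leaf mesophyll followed that order, but with all libraries edgeR called 0 of the 18 tested. The summed level of 19 mesophyll markers, among them Rubisco small subunits, was 32090 to 37997 CPM in C_HC, against 49261 to 60352 CPM in C_PC 1 to 3 and 17791 CPM in the library labelled C_PC 4. No marker of this list was at 0 in all control libraries. The list shares genes with the photosynthesis lists, and in bulk leaf RNA fewer mesophyll cells and less of these RNAs per cell cannot be told apart. Epidermis markers summed to 3258 to 4234 CPM in C_HC, 3770 to 4030 CPM in C_PC 1 to 3 and 5860 CPM in the library labelled C_PC 4. The sums of phloem, guard cell, secondary wall, dividing tissue, root, and flower and fruit markers overlapped between C_HC and C_PC 1 to 3. Glandular trichome markers, with 5 of 28 at 0 in all control libraries, summed to 64.4 to 101 CPM in C_HC and 53.5 to 68.2 CPM in C_PC 1 to 3, also overlapping. The part of cell composition in the results was not tested.

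Branched-chain amino acid metabolism gave calls in both directions. A chloroplast branched-chain aminotransferase (LOC101254608, chromosome 7), of the enzyme family that interconverts leucine, isoleucine and valine with their keto acids, had 7.77, 6.42, 6.02 and 5.97 CPM in C_HC, against 16.6, 17.7, 14.7 and 13.7 CPM in C_PC. All C_HC plants lay below all C_PC plants (log2 fold change -1.26, SE 0.196, edgeR adjusted p = 0.0034). A mitochondrial carrier annotated solute carrier family 25 member 44-like (LOC101265217, chromosome 12), whose mammalian namesake carries branched-chain amino acids, had 14.4, 12, 12 and 13.5 CPM in C_HC, against 6.42, 5.80, 7.16 and 5.96 CPM in C_PC (log2 fold change 1.03, SE 0.164, edgeR adjusted p = 0.0034). IPMS2, the isopropylmalate synthase of leucine synthesis, singled out after its values were seen, had 70.9, 72.4, 62.1 and 64.7 CPM in C_HC, against 45.4, 43.6, 46.6 and 32.1 CPM in C_PC (log2 fold change 0.69, SE 0.126, edgeR adjusted p = 0.00781). Each of the 3 passed with every control library left out in turn. No list of this pathway was counted, so these are single genes.

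The smallest p of the comparison belonged to a glycosylphosphatidylinositol-anchored lipid transfer protein (LOC101244954, chromosome 5, 10702415 to 10705112, minus strand), of a family that moves cuticle lipids to the cell surface in Arabidopsis. It had 192, 152, 185 and 139 CPM in C_HC, against 73.2, 64.5, 55.2 and 62.9 CPM in C_PC. This 2.61-fold difference (log2 fold change 1.38, SE 0.156, edgeR adjusted p = 2.67e-05) was nearly the same without the library labelled C_PC 4, at 1.36. A geraniol 8-hydroxylase-annotated cytochrome P450 (LOC101262985, chromosome 2) had 103, 102, 100 and 89.1 CPM in C_HC, against 62.1, 54.4, 49.0 and 27.0 CPM in C_PC (log2 fold change 1.04, edgeR adjusted p = 0.00534). The metabolite exporter DETOXIFICATION 48 (LOC101268678, chromosome 4) had 70.8, 58.3, 40.3 and 53.2 CPM in C_HC, against 25.5, 13.1, 31.3 and 33.7 CPM in C_PC. Its call (log2 fold change 1.10, edgeR adjusted p = 0.0463) was lost without C_HC 1, 2 or 4 or C_PC 1 or 2, with adjusted p of 0.164, 0.112, 0.0517, 0.101 and 0.11. The uncharacterized genes LOC101266832, LOC101246541, LOC101252270 and LOC101262261 had log2 fold changes of 1.02, 1.15, 1.28 and 1.10; LOC101252270 was not called when any 1 of C_HC 1, 2 or 4 or C_PC 1 or 3 was left out (edgeR adjusted p = 0.0611, 0.0586, 0.0633, 0.0816 and 0.0543).

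A receptor kinase gene annotated FLS2, after the Arabidopsis receptor of bacterial flagellin (LOC101263667, chromosome 2), had 3.69, 5.89, 3.47 and 5.44 CPM in C_HC, against 1.13, 1.19, 0.731 and 1.19 CPM in C_PC. The difference had a log2 fold change of 2.11 (SE 0.41, edgeR adjusted p = 0.0149) and did not pass without C_HC 2 (adjusted p = 0.0586). It is 1 of 7 genes of that description in the files, 4 of them tested, and reads between near copies could be split. LecRK-IV, a lectin receptor kinase, had 9.55, 8.16, 11.7 and 10.9 CPM in C_HC, against 23.9, 27.6, 17.9 and 17.0 CPM in C_PC (log2 fold change -1.10, SE 0.191, edgeR adjusted p = 0.00605). Of 128 genes of pattern recognition and immune signalling, edgeR called 1 higher and 0 lower, DESeq2 called 1 higher and 1 lower. An unadjusted p under 0.05 was reached by 17, against 13.2% of all genes tested, and the median was -0.12.

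An aspartic proteinase and several subtilisins were lower in C_HC. The aspartic proteinase Asp1 (LOC101243714, chromosome 6) had 22, 19.9, 19.2 and 19.2 CPM in C_HC, against 37.5, 29.2, 37.0 and 42.1 CPM in C_PC (log2 fold change -0.86, SE 0.156, edgeR adjusted p = 0.00781). The subtilisin-like protease sbt4a (chromosome 1) had 20.4, 14.6, 17.8 and 19.5 CPM in C_HC, against 31.1, 39.2, 43.9 and 40.4 CPM in C_PC (log2 fold change -1.10, SE 0.211, edgeR adjusted p = 0.0139). Subtilisins are serine proteases, many of them secreted to the cell wall space. Of 36 tested genes of this description, a family counted after its values were seen, edgeR called 4 lower and 0 higher, with a median of -0.23; without the library labelled C_PC 4 the number was 2. The other 3 were SBT1.9 (LOC101263003, 2 annotated transcripts), P69B and sbt3, with log2 fold changes of -1.04, -1.07 and -1.28. Sbt3 had 58.8 CPM in the library labelled C_PC 4 and 15.8 to 23.2 CPM in C_PC 1 to 3, and its edgeR adjusted p was 0.0208 with that library and 0.0501 without it. The call of sbt4a was lost without C_HC 2 or 3 (edgeR adjusted p = 0.0599 and 0.0552), and that of SBT1.9 without C_HC 2 or 3 or C_PC 3 (adjusted p = 0.077, 0.0566 and 0.0632). Neighbouring subtilisin genes are similar in sequence, and reads could be split between them.

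A linker histone, a spindle motor and a condensin subunit were lower in C_HC. Histone H1-like, a linker histone (LOC101248710, chromosome 9), had 80.6, 87.4, 67.4 and 88.8 CPM in C_HC, against 154, 128, 167 and 139 CPM in C_PC (log2 fold change -0.86, SE 0.19, edgeR adjusted p = 0.0379). The spindle motor KIN-5C (LOC101247848, chromosome 9) had 3.95, 4.01, 2.94 and 2.82 CPM in C_HC, against 6.34, 7.36, 6.65 and 7.21 CPM in C_PC (log2 fold change -1.0, edgeR adjusted p = 0.0233). Condensin complex subunit 3 (LOC101260195, chromosome 11), which compacts chromosomes, had 1.71, 1.07, 1.18 and 1.14 CPM in C_HC, against 2.87, 2.90, 5.41 and 2.62 CPM in C_PC (log2 fold change -1.43, edgeR adjusted p = 0.044). The 3 calls were fragile to single libraries. The largest edgeR adjusted p with 1 library left out was 0.146 for the histone, without C_HC 3, 0.0981 for KIN-5C, also without C_HC 3, and 0.139 for the condensin subunit, without C_HC 2. Of 64 histone and cell cycle genes, edgeR called 0 higher and 1 lower and DESeq2 1 higher and 1 lower. An unadjusted p under 0.05 was reached by 18, against 13.2% of all genes tested, and the median was -0.11. The summed dividing-tissue markers overlapped between the groups at 2172 to 2810 CPM in C_HC and 2015 to 2617 CPM in C_PC 1 to 3.

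In edgeR's fits to all groups, transport genes passed only with the library labelled C_PC 4 in 2 cases. The sugar transporter N3-like (LOC109119841), of the SWEET family, had 4.02, 3.01, 2.55 and 2.15 CPM in C_HC, against 8.53, 4.61, 5.92 and 24.3 CPM in C_PC. Its log2 fold change was -1.89 with that library (edgeR adjusted p = 0.0397) and -1.12 without it (adjusted p = 0.121). The zinc transporter 8-like gene (LOC101252338) had 55.0, 59.5, 46.7 and 72.4 CPM in C_HC, against 40.7, 29.4, 30.6 and 24.4 CPM in C_PC, with log2 fold changes of 0.90 (edgeR adjusted p = 0.0408) and 0.78 (adjusted p = 0.0783). Neither group overlapped the other in these 2 genes. With all libraries edgeR called 1 of 54 genes of sugar transport and sucrose metabolism and 1 of 28 genes of metal homeostasis, these 2. DESeq2 called 1 higher and 2 lower in the sugar list, and 2 higher and 2 lower in the metal list. The uncharacterized genes LOC101256008 and LOC101250387 also passed only with the library labelled C_PC 4 in edgeR's fits to all groups, at 0.67 and -0.46.

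A NAC factor, a gibberellin-inactivating enzyme and an ethylene receptor were called higher in C_HC by edgeR only without the library labelled C_PC 4. DESeq2 on all libraries called 1 gene higher and 0 lower in the ethylene list. It called 2 higher and 1 lower in the gibberellin and brassinosteroid list, and 3 higher and 1 lower in the glutathione and thioredoxin list. NAC1, a NAC domain transcription factor (chromosome 4), had 63.6, 94.3, 61.3 and 80.5 CPM in C_HC, against 31.7, 35.6, 28.4 and 100 CPM in C_PC (log2 fold change 1.22, edgeR adjusted p = 0.0055 without that library; 0.61, adjusted p = 0.341 with it). Gibberellin 2-beta-dioxygenase 1 (LOC101249786), which inactivates gibberellins, had 22.9, 19.3, 22.7 and 23.8 CPM in C_HC, against 6.42, 8.70, 7.31 and 33.3 CPM in C_PC (log2 fold change 1.55, edgeR adjusted p = 0.0274 without it; 0.66, adjusted p = 0.506 with it). In both genes the library labelled C_PC 4 exceeded every C_HC plant. The ethylene receptor ETR5 had 25.3, 27.7, 26.2 and 28.3 CPM in C_HC, against 13.7, 17.6, 14.3 and 25.1 CPM in C_PC. Its log2 fold change was 0.81 without that library (edgeR adjusted p = 0.0207) and 0.60 with it (adjusted p = 0.106). The ubiquitin ligase SINA6 (LOC101264159), glutaredoxin-C13 (LOC101258486) and the nitrate transporter family member NPF2.11 (LOC101267393) had values of 0.90, 0.64 and 0.54 without it (edgeR adjusted p = 0.00438, 0.0289 and 0.0468). XTH7, which cuts and rejoins wall xyloglucan, was lower, with 141, 129, 145 and 145 CPM in C_HC, against 292, 238, 413 and 96.9 CPM in C_PC (-1.18, edgeR adjusted p = 0.0468 without it).

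**Figure D4:**
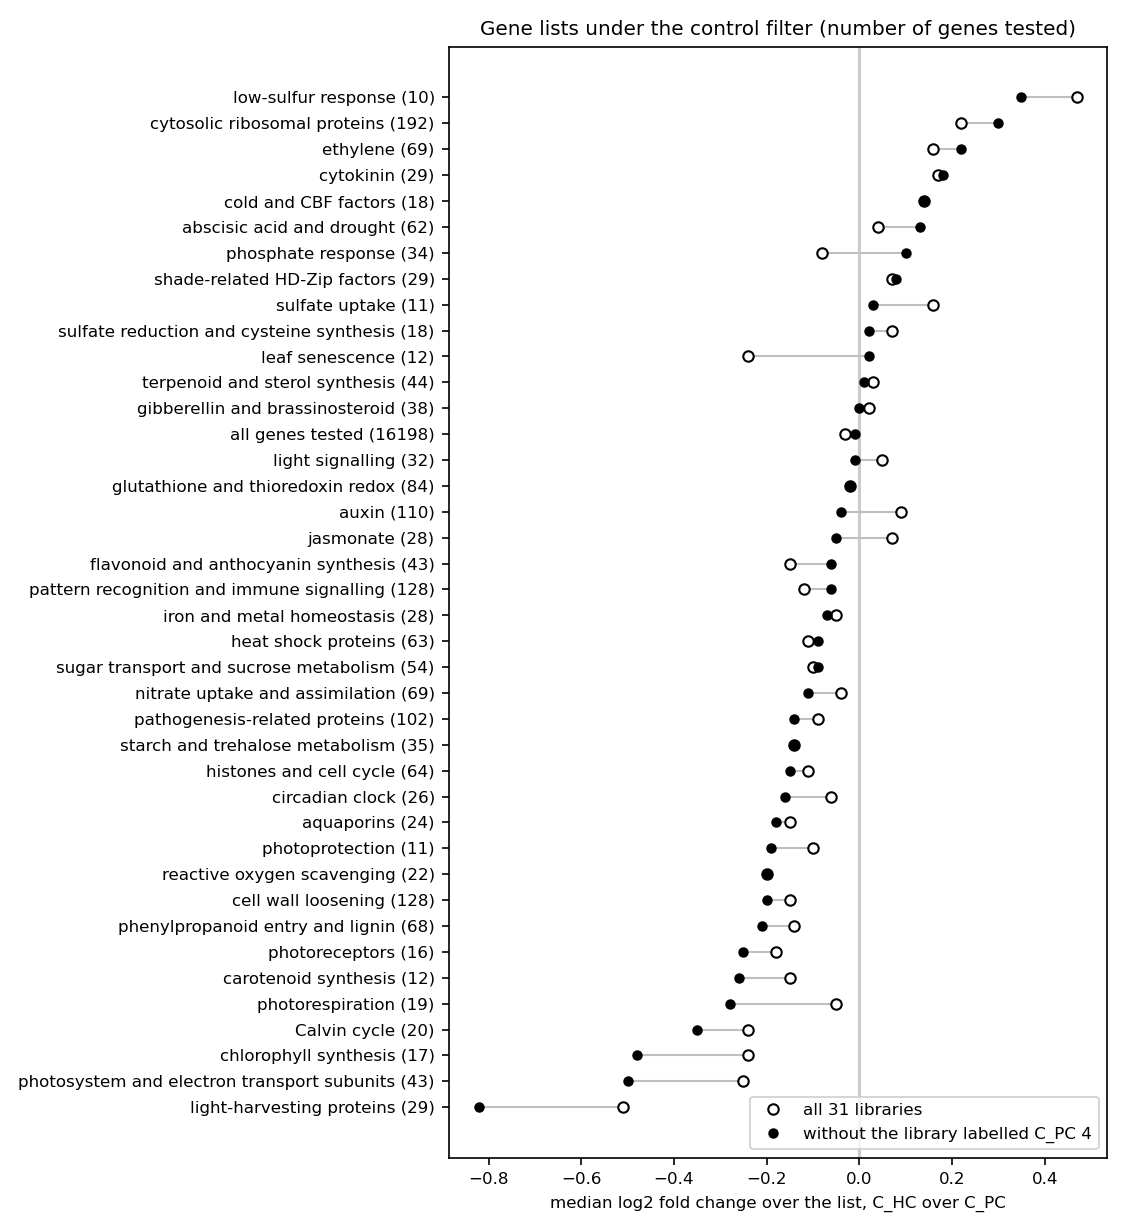
Median log2 fold change of C_HC over C_PC for 39 gene lists and all genes tested, with the number of genes tested with all libraries in brackets. Open points use all 31 libraries and filled points leave out the library labelled C_PC 4; the light-harvesting list has the lowest median in both, -0.51 and -0.82, and the low-sulfur list the highest, 0.47 and 0.35.

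Both experiments also used 3 solar cell filters, called FI (FTAZ:IT-M), PI (PTB7-Th:IEICO-4F) and FP (FTAZ:PCBM), above plants that share no library with the control groups. The difference C_HC minus C_PC departed from the mean of the same difference under the 3 filters in 22 genes, 0.136% of those tested, and 16 of these were also called between C_HC and C_PC. Without the library labelled C_PC 4 there were 259 genes, 1.6%, with 100 shared. APS reductase 3 (LOC101257319) departed by 2.18 (SE 0.298, edgeR adjusted p = 0.00118), its related gene LOC101252466 by 2.19 (adjusted p = 0.0016), LOC101243970 of the low-sulfur response by 1.87 (adjusted p = 0.0025) and PRR37 (LOC101254785) by -1.01 (adjusted p = 0.00563). These were the 4 genes that kept this call with every control library left out in turn.

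For the sulfur and clock genes the difference under FI ran opposite to that under the control filter. APS reductase 3 (LOC101257319) averaged 49.3 ± 14.4 CPM in FI_HC and 169 ± 58.6 CPM in FI_PC (SD, n = 4 each), a log2 fold change of -1.78 (edgeR adjusted p = 0.00222). GIGANTEA (LOC101255788) averaged 22.7 ± 5.73 CPM in FI_HC and 6.80 ± 0.654 CPM in FI_PC, 1.74 (adjusted p = 0.0211), and PRR37 (LOC101254785) 102 ± 14.8 CPM in FI_HC and 53.8 ± 12.3 CPM in FI_PC, 0.92 (adjusted p = 0.00225). The plants beneath FI thus had high APS reductase and low GIGANTEA in the flux-controlled experiment, and the plants beneath the control filter had them in the height-controlled one. Under PI, APS reductase 3 (LOC101257319) was also lower in the height-controlled experiment (-1.39, edgeR adjusted p = 0.0087), while GIGANTEA was at -0.40 (adjusted p = 0.521). Under FP the values were 0.63 for APS reductase 3 and -0.62 for GIGANTEA, and neither passed (edgeR adjusted p = 0.478 and 0.633).

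FP gave the control filter's direction in each of the 52 genes called in both fits, while 62.4% of all genes tested had the same sign in both. Between FP_HC and FP_PC 8 genes were called, 0.0494% of those tested (136 of 16100 without the libraries labelled C_PC 4, FP_PC 4 and PI_PC 4), and 4 of the 52 were among them, all 4 in the same direction: the lipid transfer protein LOC101244954 (0.88, edgeR adjusted p = 0.0241), the FLS2-annotated LOC101263667 (2.50, adjusted p = 0.0167), KIN-5C, LOC101247848 (-1.33, adjusted p = 0.0133), and CONSTANS-LIKE 10, LOC101267825 (0.65, adjusted p = 0.0355). Under FI 6 of the 52 had the control filter's direction, against 39.2% of all genes. Between FI_HC and FI_PC 18 genes were called, 0.111%; 5 of the 52 were among them, all 5 in the opposite direction. Under PI 27 of the 52 had the same direction, against 52.7% of all genes; 557 genes were called there, 3.44% (2497 of 16100 without those 3 libraries), and among the 52 the calls were 4 in the same and 2 in the opposite direction. Signed towards the control filter's direction, the median log2 fold change of the 52 was -0.24 under FI, 0.40 under FP and 0.03 under PI, against 0.74 under the control filter, by whose calls they were chosen. The libraries labelled FP_PC 4 and PI_PC 4 also carry another group's block code. Without them and the library labelled C_PC 4 the numbers of equal direction, of 52, were 6 under FI, 51 under FP and 25 under PI, against 39.8%, 62.5% and 38.7% of all genes tested.

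**Figure D5:**
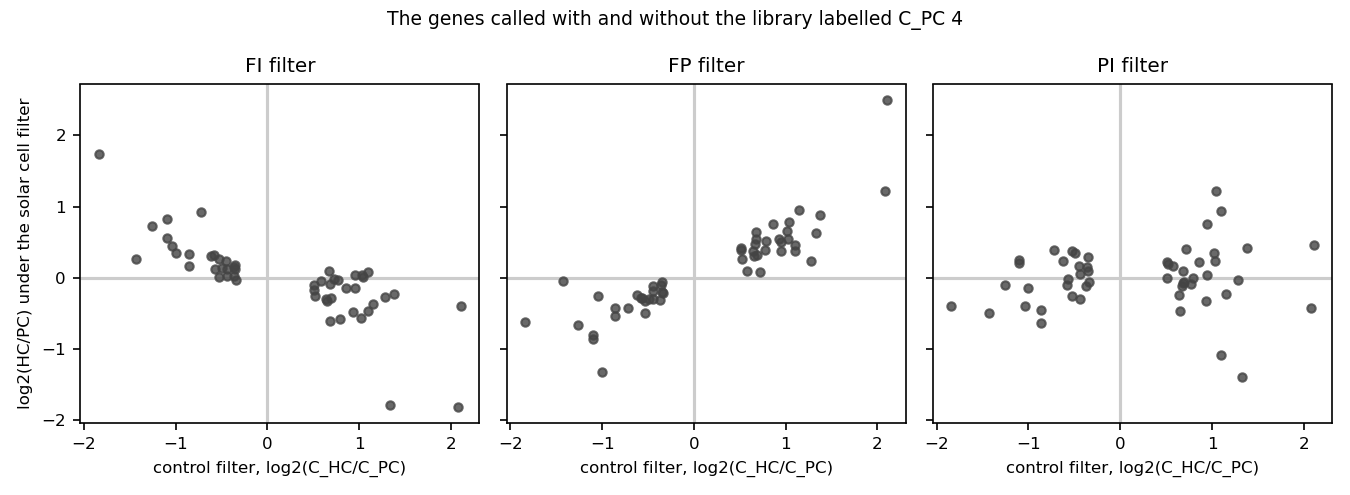
Log2 fold change of the height-controlled over the flux-controlled experiment under the control filter (horizontal) and under each solar cell filter (vertical) for the 52 genes called with and without the library labelled C_PC 4; each point is a gene. Under FI 6 genes have the same sign on both axes, under FP all 52 and under PI 27.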

How the data were processed

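Poly(A)-selected leaf RNA of 31 libraries was analysed, 8 of them from the control filter. The deposited values are raw counts per exon record, made by the authors with featureCounts 2.0.1 on paired reads, reverse strand, against a RefSeq annotation of build SL3.0, per the file headers. FastQC, HISAT2 and DESeq2 are also named in the submitters' processing notes. Of 310488 exon records, 181694 (58.5%) share coordinates with another and hold 0 counts, so genes with 2 or more transcripts, 23.9% of genes, hold 1.38% of the counts and were poorly measured. Exon counts were summed by gene name to 30397 genes, and the gene identifiers of 28099 occur in RefSeq's list for a different assembly. Records without a gene name (0.0169% to 0.037% of control libraries' counts) were left out.

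One edgeR 4.0.16 model (R 4.3.3, limma 3.58.1) was fitted to all 31 libraries, 1 mean per group, with TMM scaling, filterByExpr, the quasi-likelihood test and Benjamini-Hochberg adjustment at 0.05. It was repeated without the library labelled C_PC 4. CPM are TMM-scaled, and SE is the log2 fold change divided by the root of F. The fit was tested on simulated counts. Libraries came from individual plants, per the design text, and replicate numbers from the titles; no pair of libraries in a control group agreed within sampling noise (chi-square per gene 10.4 to 168 over 12 pairs). Counting floors cover counting error only.

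The comparison, 39 gene lists and 9 marker lists, taken from gene descriptions, were chosen with earlier results of these data known. Named genes were the 10 largest changes in each direction among genes called in both fits (mean log2 CPM of at least 1), the calls with the smallest p in only 1 fit (3 with all libraries, 5 per direction without), up to 4 called members of each list or, where none was called, the one with the smallest p, and up to 4 genes of the difference between filters. Where a gene met the rule on letters alone, the match was dropped. Alternatives were DESeq2 1.42.0 (its size factors and Wald test), upper-quartile scaling, other filters, fewer groups or libraries, a replicate block and genes with 1 transcript. A search for promoter motifs was not run, since no sequence was used here.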

Additional observations from a re-analysis of the deposited data

Results flagged for a closer look

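Gaps within a group were examined in 102 groups of 4 values in C_HC and C_PC, for the named genes called in either fit. Named genes without a call, such as HMG2, were not examined. In 13 groups a value was set off from the other 3 beyond Dixon's 95% limit. Chance gives about 5% for genes not chosen by their values, so that share cannot be set against this count. Of the 13, 7 were the library labelled C_PC 4. Several of these genes were named because they passed only without that library. It was the highest of its group for GIGANTEA (LOC101255788, 67.4 CPM, others 23.9 to 27.0), APS reductase 3 (LOC101257319, 55.3 CPM), glutaredoxin-C13 (LOC101258486, 356 CPM), the low-sulfur gene LOC101243970 (136 CPM), NAC1 (100 CPM), NPF2.11 (LOC101267393, 229 CPM) and gibberellin 2-beta-dioxygenase 1 (LOC101249786, 33.3 CPM, others 6.42 to 8.70). C_HC 4 was low for ribosomal protein S18 (LOC101266399, 30.2 CPM), C_HC 3 was low for glyceraldehyde-3-phosphate dehydrogenase B (LOC101264004, 475 CPM) and NPF2.11 (LOC101267393, 165 CPM), and C_HC 1 was high for condensin subunit 3 (LOC101260195, 1.71 CPM). C_PC 3 was high for the same condensin gene LOC101260195 (5.41 CPM) and low for the FLS2-annotated LOC101263667 (0.731 CPM).

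The difference C_HC minus C_PC departed from the mean difference under the 3 filters, by edgeR's test of that contrast, in 13 named genes. On the log2 scale the departure was positive in SULFUR DEFICIENCY-INDUCED 1-like (LOC101258461, 2.43), both APS reductases (LOC101252466, 2.19, and LOC101257319, 2.18), LOC101243970 (1.87), DETOXIFICATION 48 (LOC101268678, 1.47), LOC101246541 (1.04), the lipid transfer protein LOC101244954 (1.03), LOC101266832 (0.87) and CONSTANS-LIKE 10 (LOC101267825, 0.69). It was negative in GIGANTEA (LOC101255788, -2.08), the branched-chain aminotransferase LOC101254608 (-1.25), LecRK-IV (-1.18) and PRR37 (LOC101254785, -1.01).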

How the results depend on the processing

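The 60 calls between C_HC and C_PC became 311 with the DESeq2 Wald test, 22 with log2 fold changes of 1 or more in size, 0 in a fit of these groups alone, 516 in that fit without the library labelled C_PC 4, and 283 without the 3 libraries that carry another group's block code. Leaving out each control library gave 26 to 159 calls, with 29, 26 and 27 without C_HC 1, 2 and 3 and 159 without the library labelled C_PC 4. The 22 calls of the difference against the filters became 143 with DESeq2, 12 with no low-count filter, 13 with log2 fold changes of 1 or more in size and 600 without the 3 libraries. Leaving out each control library gave 5 to 259, with 5, 5 and 12 without C_HC 1, 2 and 3, 12 and 8 without C_PC 1 and 2, and 259 without the library labelled C_PC 4. The cause of these moves was not tested. Upper-quartile scaling called 33 genes higher and 20 lower, against 31 and 29. Records with no gene name, kept as an alternative added after the data were seen, gave 31 and 19. The deviations of libraries with the same number correlated at -0.0297 on average, so the numbers do not pair the samples. A fit with the replicate block gave 50 calls, and 27 for the difference. No named gene changed sign under any alternative run. For the named genes 1165 values kept their side of the threshold, 97 gained it and 101 lost it. Without counts for exon records shared between transcripts, genes with several transcripts were measured at low depth.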

Other observations

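Of the 39 gene lists, 18 had an edgeR call with or without the library labelled C_PC 4 and 21 had none. In 7 of those 21 DESeq2 on all libraries called 4 genes higher and 8 lower, against 148 higher and 163 lower of all 16198 genes tested. Among the lists with no edgeR call, flavonoid and anthocyanin synthesis had a median log2 fold change of -0.15 over 43 genes, and its member with the smallest p, a flavonoid 3'-monooxygenase that adds a hydroxyl group to the flavonoid B ring (LOC101267831), had 101, 101, 101 and 97.6 CPM in C_HC, against 117, 138, 134 and 145 CPM in C_PC (log2 fold change -0.41, edgeR adjusted p = 0.0858); DESeq2 called 2 genes of this list lower. Among 63 heat shock genes the factor HSFA3 had 11.8, 11.5, 11.6 and 14.1 CPM in C_HC, against 16.0, 17.4, 15.7 and 18.9 CPM in C_PC (-0.47, adjusted p = 0.0889). The cytokinin response regulator ARR9 (LOC101247174) had 29.2, 32.3, 51.5 and 47.9 CPM in C_HC, against 19.1, 21.8, 30.9 and 11.5 CPM in C_PC (0.95, adjusted p = 0.0931). HMG2, an enzyme of mevalonate synthesis, had 4.28, 4.15, 3.66 and 5.17 CPM in C_HC, against 3.55, 5.95, 4.39 and 40.1 CPM in C_PC, so that its log2 fold change of -1.65 (adjusted p = 0.201) became -0.11 without the library labelled C_PC 4. The pathogenesis-related gene LOC104644305 had 3.03, 2.88, 3.66 and 2.69 CPM in C_HC, against 5.74, 3.50, 8.04 and 21.9 CPM in C_PC (-1.68, adjusted p = 0.072).

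Lists of auxin, jasmonate, abscisic acid, sulfate uptake, aquaporins and phosphate response had medians of 0.09, 0.07, 0.04, 0.16, -0.15 and -0.08 with all libraries. Without the library labelled C_PC 4 the auxin, jasmonate and phosphate medians were -0.04, -0.05 and 0.10.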
